A study of Mus musculus with 2 samples.

Results

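Small nucleolar RNAs (snoRNAs) and their host genes were followed in the RNA sequencing of Th1 cells from WT and Chi3l1 KO mice. All rows whose symbol starts with Snora, Snord or Snhg were taken, together with Gas5 and Rn45s. They were 127 of the 24421 rows of the deposited tables, and comprised 36 Snora rows, 74 Snord rows, 15 Snhg rows, Gas5 and Rn45s. Another 16 rows annotated as snoRNAs carry other symbols and are not members.

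Naïve CD4 T cells from C57BL/6J mice 6 to 8 weeks old, Chi3l1+/+ for WT and Chi3l1-/- for KO, were stimulated through CD3 and CD28 by plate-bound antibodies and skewed to Th1 with IL-12, IL-2 and an antibody against IL-4 for 3 or 5 days. The KO mice carry the deletion in all cells, and the number of mice behind each culture was not given in the sources used here. There was 1 library for each genotype, so no difference described here has a replicate check or a test. The intervals given are exact binomial (Clopper-Pearson) 95% intervals of the ratio of reads, and cover counting error only.

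Chi3l1, listed as Chil1, went against the labels. It had 1 read in the library labelled WT Th1 and 104 reads in the library labelled Chi3l1 KO Th1, with log2 values of 0.94 and 6.66. The tables hold 1 value per gene, so whether these reads lie in the deleted part could not be checked. The libraries are therefore called WT-labelled and KO-labelled throughout, and every direction given below rests on those labels. Differences are the KO-labelled value less the WT-labelled value on the deposited scale, log2 of a normalized count plus 1.

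The reads rebuilt from the tables summed to 70931343 in the WT-labelled and 63318913 in the KO-labelled library. Of 7 T cell markers, 6 had a row, with values from 11.94 to 16.49 in the WT-labelled and 11.91 to 16.48 in the KO-labelled library. All 6 were lower in the KO-labelled library, with a median difference of -0.185. Of the 4 Th1 markers, Tbx21 was at 13.98 and 13.72 and Ifng at 11.72 and 13.04 in the WT-labelled and KO-labelled library. Il12rb2 was at 13.90 and 14.35 and Cxcr3 at 8.05 and 6.82, so Ifng was past 2-fold higher and Cxcr3 past 2-fold lower. Of 6 neutrophil markers, 5 were at least 2-fold lower in the KO-labelled library, where Mpo alone was above 0 (log2 of the summed counts 6.35 against 2.53), and Camp was at 0 in both. The 3 B cell markers were higher there (summed 9.20 against 10.29). The summed macrophage markers were 9.02 and 8.85, but Lyz2 had 34 and 2 reads and Csf1r 97 and 175, and Adgre1 was at 0 in both. The summed dendritic cell markers were 5.93 and 6.26, but Itgax had 44 and 5 reads, Flt3 18 and 68 and Xcr1 0 and 5, and Siglech was at 0 in both. The summed CD8 T cell markers were 9.67 and 9.66, with Cd8a at 8.13 and 8.73 and Cd8b1 at 9.06 and 8.59. The part of other cells in the values below was not tested, and in bulk RNA fewer cells of a type and less RNA per cell cannot be told apart.

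snoRNAs guide the chemical modification of ribosomal and small nuclear RNA in the nucleolus. Box C/D snoRNAs (Snord) bind fibrillarin, Nop56, Nop58 and Snu13 and direct ribose methylation, whereas box H/ACA snoRNAs (Snora) bind dyskerin, Nhp2, Nop10 and Gar1 and direct the change of uridine to pseudouridine. In mammals most are cut out of introns of host genes after splicing, trimmed at both ends, and left without a poly(A) tail. Many hosts are genes of ribosomal proteins and translation factors, and the Snhg genes and Gas5 are hosts whose spliced RNA codes for no long protein. T cells enlarge the nucleolus and make more ribosomes when they are activated.

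The sequences below are those of the snoRNAs on which the results turn, read from the GENCODE transcripts of GRCm38 (mm10) in the 5′ to 3′ direction of each RNA. Capitals mark the C box TGATGA and the D box CTGA in these Snord members. Snord4a (chr11:78181686-78181756, minus strand, intron of Rpl23a) and Snord33 (chr7:45126864-45126947, minus strand, intron of Rpl13a) had the largest read numbers among box C/D members in the WT-labelled library, whereas Snord68 was ahead of Snord33 in the KO-labelled library.
Snord4a: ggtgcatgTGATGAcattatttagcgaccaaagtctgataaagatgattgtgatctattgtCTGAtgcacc
Snord33: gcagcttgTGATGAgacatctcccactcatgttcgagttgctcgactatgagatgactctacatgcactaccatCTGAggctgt

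The next sequences belong to Snord37, the strongly counted snoRNA farthest from its host, and to the snoRNAs of 2 hosts whose members are set side by side later. Snord37 lies in an intron of Eef2 (chr10:81178950-81179013, plus strand). Snord49b (chr11:62603079-62603150), Snord49a (chr11:62603450-62603521) and Snord65 (chr11:62604515-62604586) follow one another on the plus strand in 3 introns of 2410006H16Rik. Snord45b (chr3:153910563-153910633) and Snord45c (chr3:153912125-153912204) lie on the minus strand in 2 introns of Rabggtb, and the search found no TGATGA at the start of Snord45b.
Snord37: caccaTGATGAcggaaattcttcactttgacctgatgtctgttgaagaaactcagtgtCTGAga
Snord49b: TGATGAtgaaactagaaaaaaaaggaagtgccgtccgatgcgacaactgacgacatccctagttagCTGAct
Snord49a: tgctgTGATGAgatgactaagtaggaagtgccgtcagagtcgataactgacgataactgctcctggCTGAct
Snord65: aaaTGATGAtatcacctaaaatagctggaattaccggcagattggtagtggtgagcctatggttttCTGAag
Snord45b: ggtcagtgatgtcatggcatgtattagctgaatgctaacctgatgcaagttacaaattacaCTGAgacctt
Snord45c: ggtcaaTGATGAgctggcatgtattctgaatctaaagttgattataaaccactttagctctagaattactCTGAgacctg

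Of 110 snoRNA members, 109 had an annotated transcript sequence. TGATGA within the first 15 bases together with CTGA within the last 12 bases, on the RNA strand, was found in 38 of 73 Snord sequences (52.1%), and in 0 of 3585 miRNA and small nuclear RNA transcripts of the same annotation. ACA within the last 8 bases was found in 34 of 36 Snora sequences (94.4%), against 12.4% of those other transcripts. A match describes these letters only, and other spellings of the C box were not searched. The Snord sequences were 64 to 238 bases long, with 62 of 73 under 100 bases, and the Snora sequences were 121 to 196 bases long. Most Snord members were thus shorter than 1 read of 100 bases. Exact runs of at least 30 bases were shared by 4 pairs, Snord116l1 with Snord116l2, Snord14c with Snord14d, Snord1b with Snord1c and Snord88a with Snord88c, whose values are uncertain because reads with several alignments were counted.

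Most snoRNA rows were counted in these poly(A) libraries. At least 3 reads were found on 95 of 110 snoRNA rows in each library, and on 93 rows in both. Both libraries were at 0 on 12 snoRNA rows (10.9%), compared with 33.9% of all rows. These 12 comprised 2 of 36 Snora rows and 10 of 74 Snord rows. All snoRNA rows together held 216417 reads in the WT-labelled library (0.305% of its reads) and 213663 reads in the KO-labelled library (0.337%). Snora rows took 67694 and 59539 of these reads and Snord rows 148723 and 154124.

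The rows at 0 in both libraries included both imprinted brain snoRNAs and snoRNAs of strongly counted hosts. Snord116, Snord116l1 and Snord116l2, copies of the cluster tied to Prader-Willi syndrome, were at 0, as was their host Snhg14. Snora35, in an intron of the serotonin receptor gene Htr2c, was at 0 with its host. By contrast, Snord14c and Snord14d, copies of U14, which is needed to cut 18S ribosomal RNA from its precursor, had 0 reads, whereas their host Hspa8 had log2 values of 16.96 and 17.03. Snord14a was at 0 as well, and its host Rps13 was at 16.58 and 16.75. The others were Snora15, Snord64, Snord89, Snord104 and Snord123. A row at 0 allows up to 3 reads, or a log2 value of 1.96 in each library, by counting error.

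Other short RNAs without a poly(A) tail were counted unevenly. All 9 Scarna rows, guides of small nuclear RNA in Cajal bodies, were above 0 in at least 1 library, with values up to 7.93. Of 1174 Mir rows, 612 were at 0 in both libraries. Of 5 Rnu, Rn7s and Rny rows, 4 (Rnu6, Rnu7, Rnu11 and Rnu12) were at 0 in both, and Rnu73b had 9.99 and 10.34. These rows were grouped by symbol alone, which does not give the kind of RNA, so Rnu73b is not evidence that small nuclear RNAs were counted. Rmrp, the RNA of RNase MRP, was at 3.66 and 2.27, Rpph1, the RNA of RNase P, was at 4.21 and 3.65, and Vaultrc5 was at 0 in both. The long nuclear RNAs Malat1 (9.75 and 9.22) and Neat1 (9.29 and 9.18) are given for scale.

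A few snoRNA rows held most of the reads. The 15 rows with the highest mean value had 188055 of the 216417 snoRNA reads in the WT-labelled library (86.9%) and 181537 of 213663 in the KO-labelled library (85.0%). Of these 15, 11 lie in introns of ribosomal protein genes, and the hosts of the others are Gnb2l1 (Rack1), Tpt1 and Eef2, all of them tied to translation or growth. Snord4a had 34621 reads in the WT-labelled and 30890 in the KO-labelled library, with log2 values of 15.03 and 14.86. Snord33, from the Rpl13a snoRNAs, had values of 14.55 and 14.37, and Snora62 had 14.25 and 13.78. Snord68, in Rpl13, was at 14.44 and 14.46, a difference of 0.02 whose interval held 0 (-0.0033 to 0.05).

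Other rows of this group were Snord96a (13.93 and 14.15) and Snord95 (13.41 and 13.58) in Gnb2l1, and Snora3 (13.18 and 13.11) in Rpl27a. Snora70 in Rpl10 was at 12.75 and 12.72, Snord34 in Rpl13a at 12.62 and 12.58, and Snora65 in Rpl12 at 12.38 and 12.16. Snord16a in Rpl4 was at 12.12 and 12.28, Snord35a in Rpl13a at 11.90 and 11.98, and Snora31 in Tpt1 at 11.89 and 11.92. In these libraries their values differed by less than 0.5 on the log2 scale, and the one row of the 15 with a larger difference was Snord37. The scatter of values by library shows the same closeness at the upper end and a wider spread among rows with few reads.

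**Figure D1:**
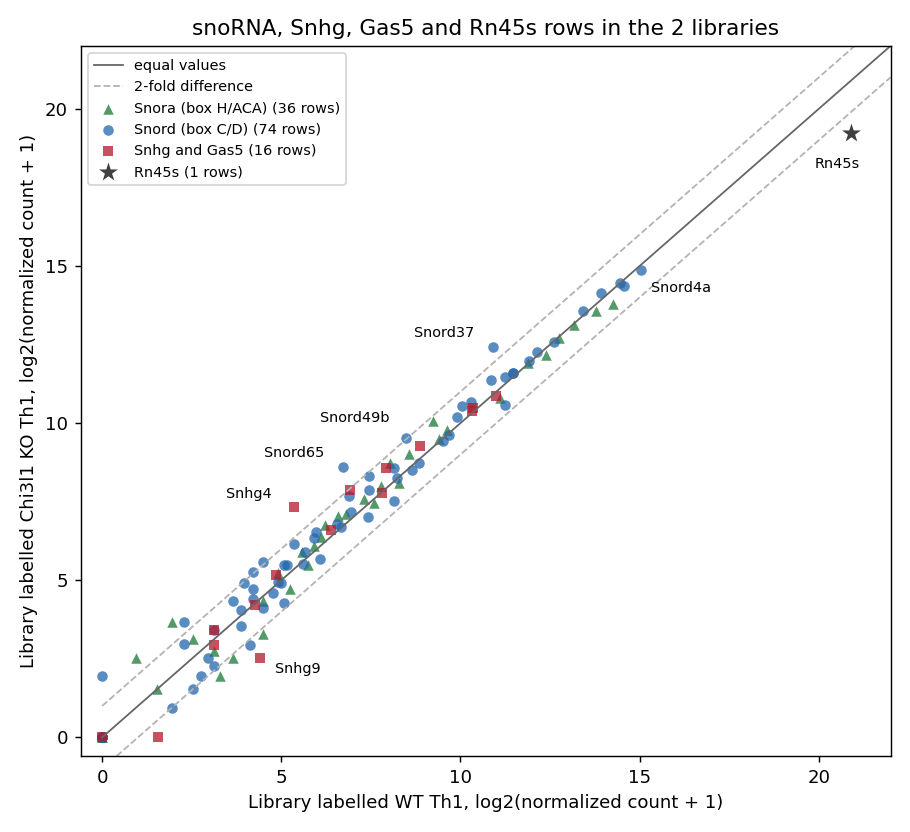
Values of all 127 rows, as log2 of the normalized count plus 1, in the WT-labelled library (horizontal axis) and the KO-labelled library (vertical axis). Each mark is a row, the solid line marks equal values and the dashed lines a 2-fold difference. Rows above a value of about 8 lie near the solid line, with Snord37 and Snord49b above the upper dashed line and Rn45s below the lower one.

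Per kb of transcript, strongly counted snoRNAs lay on both sides of their hosts. Of the 36 hosted snoRNAs with a mean value of at least 8, 18 were above their host in each library. Snord4a had 470552 normalized counts per kb in the WT-labelled library, whereas its host Rpl23a had 174165 per kb over exons. Snord33 had 286149 per kb against 81286 for Rpl13a, and Snora62 had 130577 against 96445 for Rpsa. Snora31, Snord37, Snora70, Snord35a and Snord16a stood lower than their hosts, with 29248 per kb for Snora31 against 221926 for Tpt1. Among 92 snoRNAs with a host and a mean value of at least 2 in both, 27 were above their host per kb in the WT-labelled library and 30 in the KO-labelled library. The length of a host was that of its longest annotated transcript. A host whose RNA is mostly shorter would have a higher value per kb, so the counts above the host depend on this choice. These values per kb are only a scale for RNAs shorter than a read.

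At least a 2-fold difference was found on 15 of 110 snoRNA rows, and no test against the share of all rows was run. The KO-labelled library was higher on 9 rows (8.18%), compared with 4.7% of all 24421 rows, and lower on 6 rows (5.45%), compared with 5.81% of all rows. With the library totals taken without Rn45s, the split was 10 higher and 3 lower, a scaling that moved the median of all rows counted in both libraries by 0.14. Among rows with a mean log2 value of at least 2, 7 of 94 were higher and 5 lower, compared with 4.51% and 6.03% of 14285 rows. The median difference of these 94 rows was 0.15, with 57 higher and 37 lower, whereas the median of the 14285 rows was -0.01. The median was 0.06 for 32 Snora rows and 0.17 for 62 Snord rows. The sign of the difference changed under at least 1 other scaling, the GC correction (the trend of the difference with transcript GC content removed) or the other pseudocount on 21 of the 94 rows.

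Most differences among strongly counted snoRNAs were under 2-fold. Of 37 snoRNA rows with a mean value of at least 8, 22 were higher and 15 lower in the KO-labelled library, with a median of 0.08, and 2 were past 2-fold, compared with 1.46% of the 9093 rows at that level. Those 2 were Snord37 and Snord49b, and Snord49b was at 0.91 after the GC correction. Of the 9 rows at least 2-fold higher, 6 had a counting interval above 0 and 5 had 10 or more reads in both libraries. Of the 6 rows at least 2-fold lower, 1 had an interval below 0, and 0 had 10 or more reads in both libraries.

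Snord65 had the largest increase among snoRNAs with a mean value of at least 2. It had 108 reads in the WT-labelled and 405 reads in the KO-labelled library, and its value went from 6.71 to 8.61, a difference of 1.90 (interval 1.59 to 2.22). Snord37, which lies in the gene of elongation factor 2, had 1987 and 5751 reads and values of 10.91 and 12.43, a difference of 1.53 (interval 1.45 to 1.60). Its host Eef2 differed by 0.09 (interval 0.08 to 0.10), so the snoRNA and host intervals did not overlap. The reads on Snord37 were 0.658 per 100 reads of Eef2 in the WT-labelled library and 1.79 in the KO-labelled library.

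The others of the 5 largest increases at a mean value of at least 2 rested on fewer reads. Snora74a had 3 and 12 reads, a difference of 1.71 (interval 0.11 to 4.46). Snord11, in the gene of the box C/D protein Nop58, had 4 and 12 reads, a difference of 1.38 whose interval held 0 (-0.14 to 3.67). Snord45b had 22 and 48 reads, a difference of 1.09 (interval 0.36 to 1.92). These rows were low in both libraries, and counting error left their sizes wide.

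The largest decreases were on rows with 22 or fewer reads. Snora47, in an intron of Zbed3, had 22 and 9 reads, a difference of -1.21 (interval -2.60 to -0.12). Snora78 had 9 and 3 reads, a difference of -1.33 whose interval held 0 (-4.11 to 0.41). Snord45c had 17 and 7 reads (-1.18, interval -2.80 to 0.06), Snora24 had 12 and 5 reads (-1.12, interval -3.12 to 0.34) and Snord7 had 5 and 2 reads (-1.01, interval -4.72 to 1.28). Snora47, Snora78 and Snord7, and among the increases Snord45b, Snord49b and Snord1c, were no longer past 2-fold after the GC correction, and Snora24, Snord7 and Snord90 were not with the library totals taken without Rn45s. Snord7 was also under 2-fold with quantile normalization. Snord118 (U8), which has its own promoter and is needed to process 28S and 5.8S ribosomal RNA, was named here after its value was seen. It had 2498 and 1600 reads, with values of 11.24 and 10.59 and a difference of -0.65 (interval -0.74 to -0.56).

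Among the Snhg and Gas5 rows, Snhg4 and Snhg9 stood apart in opposite directions. Snhg4 had 41 reads in the WT-labelled and 165 in the KO-labelled library, and its value was 5.35 and 7.32, a difference of 1.97 (interval 1.5 to 2.53). Snhg9 had 21 and 5 reads, with values of 4.42 and 2.53 and a difference of -1.88 (interval -3.84 to -0.63). Snhg18 had 2 reads and 0 reads, and both numbers are within counting error of 0. Thus 1 of the 16 Snhg and Gas5 rows was at least 2-fold higher, compared with 4.7% of all rows, and 2 were at least 2-fold lower, compared with 5.81%, with Snhg18 one of them.

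Gas5 and Snhg1, hosts of many box C/D snoRNAs whose spliced RNAs are short-lived, were both higher in the KO-labelled library. Gas5 had 479 and 639 reads, values of 8.86 and 9.27, and a difference of 0.41 (interval 0.24 to 0.59), which was 0.219 after the GC correction. Snhg1 had 250 and 396 reads, values of 7.92 and 8.58, and a difference of 0.65 (interval 0.43 to 0.89). Snhg5 went from 124 to 244 reads and from 6.91 to 7.88, a difference of 0.97 (interval 0.65 to 1.30), which was 1.11 with the library totals taken without Rn45s. The 3 kept their sign under all scalings and corrections run.

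The Snhg rows with the highest values were close between the libraries. Snhg12 was at 10.98 and 10.87, Snhg3 at 10.35 and 10.47, and Snhg17 at 10.32 and 10.39. The interval of Snhg12 was -0.20 to -0.02 and that of Snhg3 was 0.01 to 0.23, but the sign of Snhg12 changed with the library totals taken without Rn45s (0.03) and that of Snhg3 with the GC correction (-0.07). Snhg20 was at 7.81 and 7.78, Snhg6 at 6.38 and 6.58, Snhg7 at 4.86 and 5.16, Snhg8 at 4.28 and 4.20, Snhg11 at 3.12 and 3.41, and Snhg10 at 3.13 and 2.95, all with intervals that held 0.

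Over the 14 Snhg and Gas5 rows with a mean value of at least 2, the median difference was 0.16, with 9 higher and 5 lower. This lay near the median of 0.15 for snoRNAs, and all rows at that level had a median of -0.01. After the GC correction the medians were 0.02 for the 12 Snhg and Gas5 rows with a GC value and 0.08 for snoRNAs. Reads on the 16 rows came to 6066 and 6658, far fewer than those on snoRNA rows. Per kb of the longest annotated transcript, Snhg3 (2240 normalized counts per kb) and Snhg12 (1314) led in the WT-labelled library, followed by Snhg17 (329) and Gas5 (181). The plot of host gene values shows these rows in order of their mean.

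**Figure D2:**
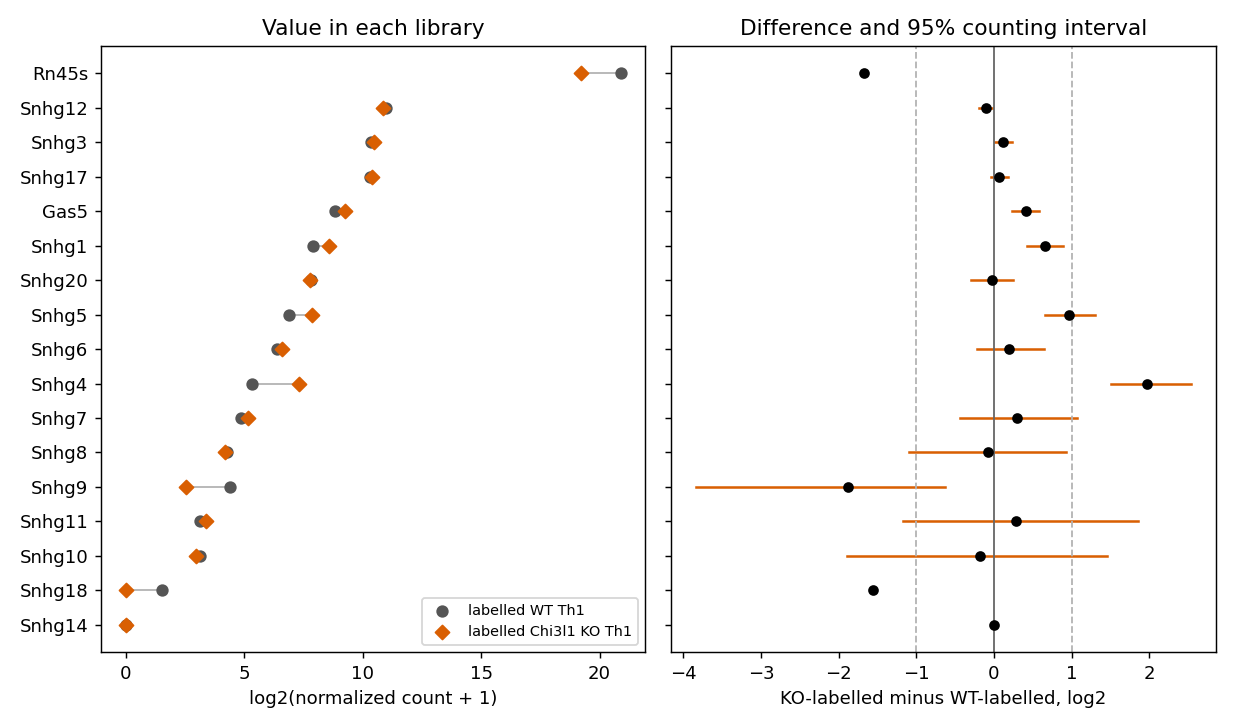
Values of the 15 Snhg rows, Gas5 and Rn45s in the WT-labelled (grey) and KO-labelled (orange) library on the left, and the difference (black) with its 95% counting interval (orange) on the right, both on the log2 scale. Dashed lines mark 2-fold. Snhg4 lies right of the dashed line at 1.97, whereas Snhg9 (-1.88) and Rn45s (-1.67) lie left of it, and Snhg14 and Snhg18 have no interval drawn.

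Rn45s, the precursor from which 18S, 5.8S and 28S ribosomal RNA are cut, was the row with the most reads in the WT-labelled library. RNA polymerase I makes it without a poly(A) tail. It had 2008098 reads in the WT-labelled and 633458 in the KO-labelled library, or 2.83% and 1.0% of the normalized counts. Its values were 20.89 and 19.22, a difference of -1.67 (interval -1.67 to -1.66). The difference was between -1.67 and -1.30 under the other scalings. With 1 library for each genotype, genotype, culture and library preparation cannot be told apart.

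Most genes that make and process ribosomal RNA were not lower in the KO-labelled library. Of 51 RNA polymerase I and ribosomal RNA processing genes, 0 were at least 2-fold higher and 1 at least 2-fold lower, with 39 higher, 12 lower and a median of 0.24. All 51 had a mean value of at least 8, where 1.46% of all rows were past 2-fold, so this count is near that share. At that level 4452 of 9093 rows were higher and 4636 lower. The difference moved with transcript GC content, from 0.232 in the lowest to -0.453 in the highest of 20 bins. No median after the GC correction is given for this list or the lists below. The one past 2-fold was Znrd1, a subunit of RNA polymerase I, at 9.61 and 8.12 (interval -1.70 to -1.30). Polr1a, the largest subunit, was at 12.15 and 12.43, and Polr1b at 10.97 and 10.90. Npm1 (nucleophosmin) was at 15.82 and 16.34 and Ncl (nucleolin) at 13.48 and 13.53, whereas Ubtf, which binds ribosomal DNA, was at 15.11 and 14.89, and Tcof1 at 15.66 and 15.33. The largest increase in the list was Wdr12, a factor of the large subunit, at 10.54 and 11.34.

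Of 21 genes of proteins that bind or assemble snoRNAs, 0 were past 2-fold, near the share of 1.46% for rows with a mean value of at least 8. All of them but Znhit6 were at that level. In the KO-labelled library 15 were higher and 6 lower, with a median of 0.24. For box C/D, the methyltransferase Fbl was at 13.56 and 13.17, Nop56 at 11.70 and 11.86, Nop58 at 9.57 and 9.84, and Nhp2l1 (Snu13) at 13.22 and 13.00. For box H/ACA, the pseudouridine synthase Dkc1 was at 10.04 and 10.57, Nhp2 at 12.17 and 12.44, Nop10 at 10.51 and 10.37 and Gar1 at 9.51 and 9.53. Among assembly factors, Naf1 differed by -0.64, Ruvbl1 by 0.60 and Shq1 by 0.57. Both protein cores thus held higher and lower members.

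The lists of RNA turnover and ribosomal protein genes had 0 rows past 2-fold, which is also near the 1.46% of rows with a mean value of at least 8. Most of their rows were at that level, but Upf3b, Exosc3, Xrn1, Rps4l, Rpl39l, Rpl3l and Rpl10l were below it. The 16 genes of nonsense-mediated decay and turnover, which limits Gas5 and Snhg1 RNA, had 11 higher and 5 lower with a median of 0.13. Upf1 was at 13.22 and 13.03, Xrn1 at 7.72 and 7.15, and Dbr1, which opens intron lariats, at 10.36 and 10.77. The 83 ribosomal protein genes with a mean value of at least 2 had 49 higher, 34 lower and a median of 0.12.

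A host was assigned to 105 of 110 snoRNAs, as the smallest gene on the same strand that holds the snoRNA and has a row. Snhg4 was not placed and so could not be assigned as a host, and Snora74a was among the snoRNAs without one. The 75 hosts comprised ribosomal protein genes for 32 snoRNAs, Snhg genes or Gas5 for 15, and others for 58. The class was set by symbol alone. Hosts with neither kind of symbol, such as 2410006H16Rik, 1810032O08Rik and 1110038B12Rik, counted as others whatever their kind of RNA. In 50 snoRNAs at least 1 annotated host transcript has an exon over the snoRNA, and in 53 there was 0 such transcript. Reads of unspliced host RNA, of such transcripts and of the snoRNA itself are not separated in the tables, and their shares were not tested. Since 22 hosts hold 2 or more members, snoRNAs are not independent of each other.

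Where snoRNA and host both had a mean value of at least 2, most snoRNA differences lay within 0.5 of that of the host. For these 92 snoRNAs in 66 hosts, the median difference was 0.15 for snoRNAs and 0.14 for hosts. The snoRNA difference less the host difference had a median of 0.02 and ranged from -2.30 to 1.48, with 71 of 92 within 0.5, 7 past 1, and 62 of 92 in the same direction as their host. The sign of this median turned under quantile normalization (-0.06) and the GC correction (-0.02). Across these snoRNAs, Pearson's r of snoRNA and host differences was 0.54 and Spearman's rho 0.54, given as a description, since members share hosts and both libraries. Among the 36 hosted snoRNAs with a mean value of at least 8, 35 were within 0.5 of their host, and the one outside was Snord37. Differences of all 14285 rows with a mean value of at least 2 had quartiles of -0.325 and 0.287. Unrelated pairs of genes were not compared, so how many would lie within 0.5 is not known, here and by class of host.

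By class of host, 28 of 31 snoRNAs in ribosomal protein genes were within 0.5 of their host, with a median of snoRNA less host of 0.03. In the 9 snoRNAs of hosts with an Snhg symbol or Gas5 the median was 0.325, with 6 of 9 within 0.5. The other 52 had a median of 0.01, with 37 within 0.5. Snord58b in Rpl17 was an example of a snoRNA and host on opposite sides of 0, at 7.42 and 7.01 against a host difference of 0.02. Snora21 (0.72) and its host Rpl23 (0.69) went together, as did Snord12 (0.86) and 1500012F01Rik (0.85), known as Zfas1. The plot of snoRNA against host differences shows most marks near the line of equal differences.

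**Figure D3:**
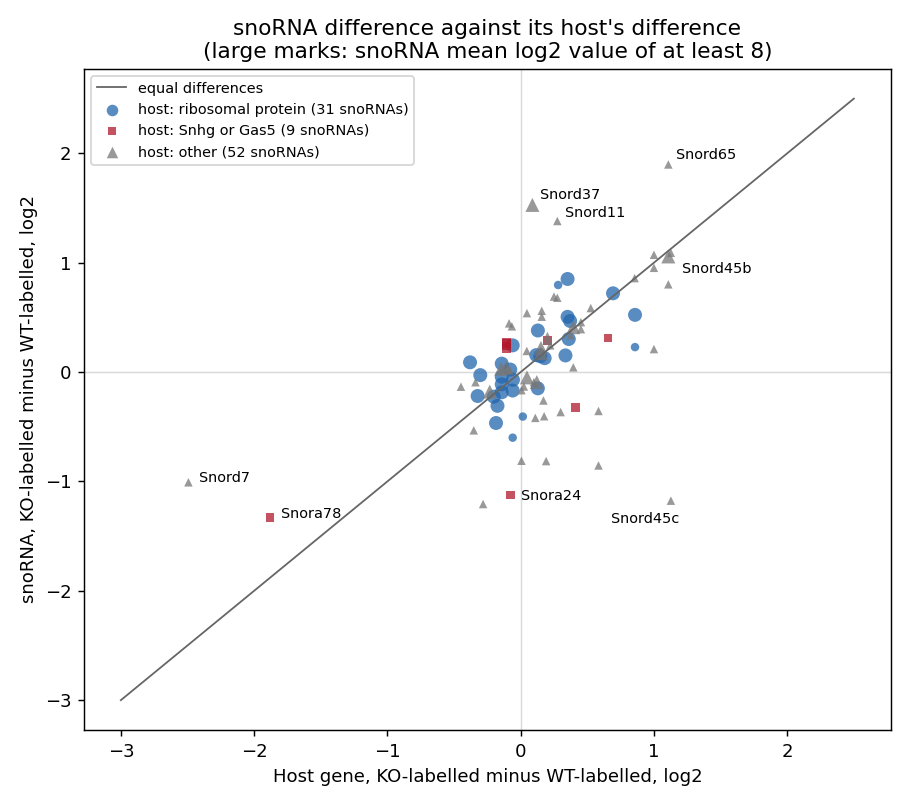
Difference of each snoRNA (vertical axis) against the difference of its host gene (horizontal axis), KO-labelled less WT-labelled on the log2 scale, for 92 snoRNAs by class of host. The line marks equal differences and large marks have a mean log2 value of at least 8. Snord37 is the one large mark far from the line (1.53 against 0.09 for Eef2), and small marks such as Snord45c and Snord7 lie farther out.

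Families within 1 host showed both patterns. The 3 snoRNAs of 2410006H16Rik were all higher in the KO-labelled library, as was the host, which was at 10.38 and 11.49 (difference 1.11, interval 1.02 to 1.202). Snord49b had 367 and 767 reads and a difference of 1.057 (interval 0.88 to 1.24), and Snord49a had 122 and 213 reads and a difference of 0.80 (interval 0.47 to 1.13). The interval of Snord65 (1.59 to 2.22) lay above that of the host. The sequences shown above for Snord49a and Snord49b share a run of 13 bases, and Snord65 shares 6 with Snord49a and 7 with Snord49b.

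Snord45b and Snord45c, in separate introns of Rabggtb, went in opposite directions. Rabggtb, a subunit of Rab geranylgeranyl transferase, was at 11.38 and 12.51, a difference of 1.13 (interval 1.062 to 1.19). Snord45b followed it with 1.09, whereas Snord45c differed by -1.18 on 17 and 7 reads, with an interval that held 0. In 1810032O08Rik (difference 1.0), Snord1b (0.95) and Snord1c (1.07) were near the host and Snord1a (0.21) was lower, with 18 and 21 reads and an interval (-0.76 to 1.21) that held the host's difference. In Gnl3 (0.58), a nucleolar GTPase, Snord19 (-0.85) and Snord69 (-0.36) were on the other side of 0, with 22 or fewer reads each in both libraries. The intervals of Snord19 (-3.19 to 0.90) and Snord69 (-1.38 to 0.60) held 0 and the host's difference.

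In the ribosomal protein hosts the families were tighter. In Rpl13a (-0.14), Snord32a, Snord33, Snord34 and Snord35a were between -0.18 and 0.08. In Rpl23a (-0.06), Snord4a was at -0.17, Snord42a at 0.24 and Snord42b at -0.60, the last with 289 and 191 reads (interval -0.87 to -0.33). In Rps12 (0.35), Snord100 was at 0.51 and Snora33 at 0.85, with 618 and 1119 reads for Snora33 (interval 0.71 to 0.996). In Rps3 (0.86), Snord15b was at 0.52 (interval 0.41 to 0.64), below its host.

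The 4 snoRNAs of Snhg12 were alike among themselves. Snora16a (7.77 and 7.99), Snora44 (7.31 and 7.58), Snora61 (6.11 and 6.38) and Snord99 (6.95 and 7.18) differed by 0.22 to 0.27, each with an interval that held 0, whereas Snhg12 differed by -0.11, or by 0.03 with the library totals taken without Rn45s. Snora78 was lower together with its host Snhg9. Snord22 in Snhg1 was at 5.17 and 5.48, and Snord47 in Gas5 at 3.86 and 3.54, both with intervals that held 0. The plot of shared hosts sets these families side by side.

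**Figure D4:**
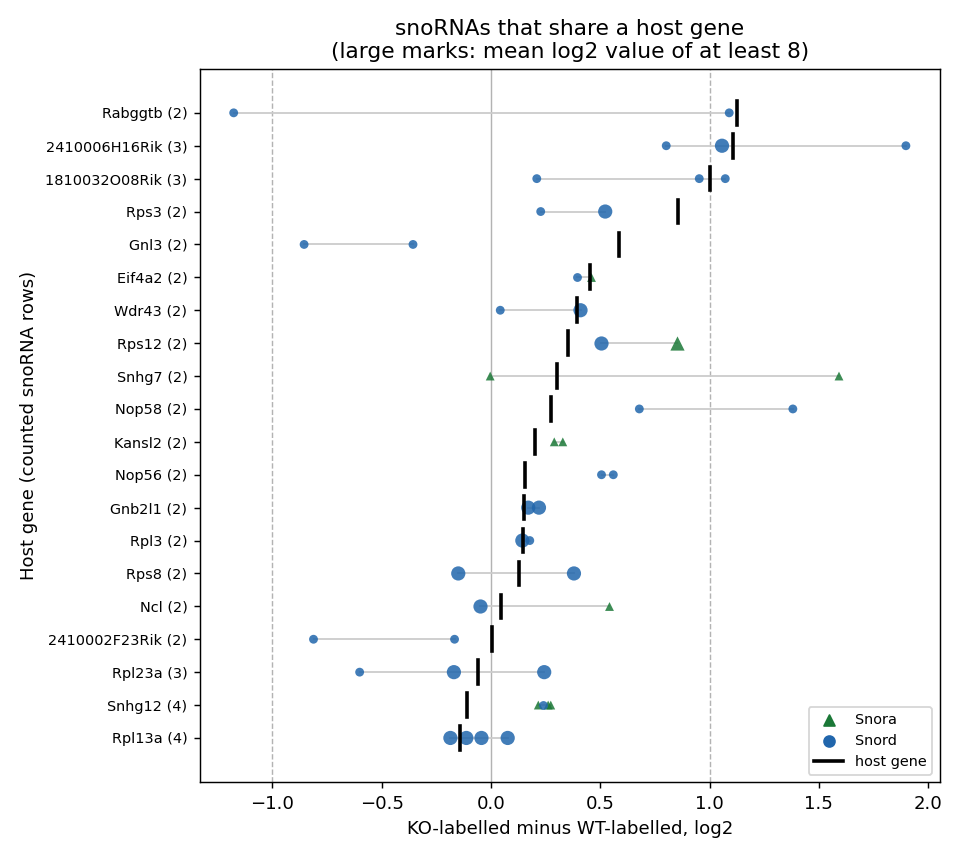
Differences (KO-labelled less WT-labelled, log2) of snoRNAs that share a host, for 20 hosts with 2 or more snoRNA rows above 0. Triangles are Snora and circles Snord rows, large marks have a mean log2 value of at least 8, and black bars mark the host. The 4 snoRNAs of Rpl13a and those of Snhg12 lie close together, whereas the 2 of Rabggtb lie apart at 1.09 and -1.18.

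The number of reads on a snoRNA relative to its host varied widely and was similar in both libraries. For the 92 snoRNAs, the median was 2.62 snoRNA reads per 100 host reads in the WT-labelled and 2.51 in the KO-labelled library, with a range of 0.0285 (Snord43 in Rpl3) to 63.2 (Snora24 in Snhg8, 12 and 19 reads) in the WT-labelled library. Spearman's rho between the libraries over these snoRNAs was 0.98. Snord4a had 32.6 and 30.2 per 100 reads of Rpl23a, whereas Snord42b in the same gene had 0.272 and 0.187. Snora26 had 36.5 and 32.7 per 100 reads of Dancr. These are numbers of reads, not levels, since snoRNA and host differ in length.

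Over the 92 snoRNAs, reads per host read had a higher median where the intron was short. The 27 snoRNAs in introns of at most 250 bases had a median of 5.01 per 100 host reads in the WT-labelled library, and the 65 in longer introns had 1.45. Spearman's rho with intron length was -0.35 over the 92, and 0.04 over the 36 with a mean value of at least 8. By class of host it was -0.22 in ribosomal protein genes, 0.47 in the 9 snoRNAs of Snhg genes and Gas5, and -0.26 in other hosts. Class of host moved with both, since snoRNAs in ribosomal protein genes had a median of 5.71 and a median intron length of 354 bases, against 1.15 and 512 bases in other hosts. The 46 snoRNAs with a host exon annotated over them had a median of 3.99, and the 46 without had 1.46. The plot of reads per host read shows these values.

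**Figure D5:**
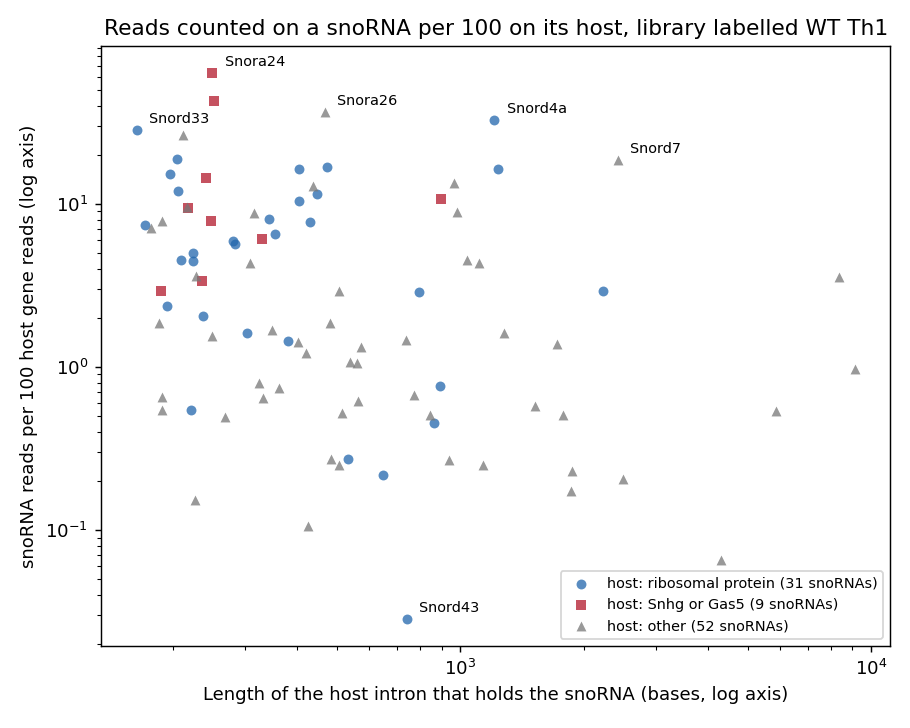
Reads on each snoRNA per 100 reads on its host in the WT-labelled library (vertical log axis) against the length in bases of the host intron that holds it (horizontal log axis), for 92 snoRNAs by class of host. Values run from 0.0285 (Snord43) to 63.2 (Snora24), and snoRNAs in introns of at most 250 bases have a higher median (5.01) than those in longer introns (1.45).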

How the data were processed

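Poly(A) RNA was selected with oligo-dT beads and sequenced as paired 100-base reads. The authors mapped reads with TopHat (mm10, per the labels), counted unique and multiple alignments, and used edgeR and a global normalization. Versions, annotation and strand setting were not given in the sources used here. The deposited log2 values were taken as logarithms of scaled read counts after 1 was added, a unit inferred because low values fall on whole multiples of a step (0.965 in the WT-labelled and 0.962 in the KO-labelled library, within 0.1 read for 100% of low values). Dividing by the step gave the reads.

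Members, gene lists and comparisons were chosen with earlier results of these data known. Named snoRNAs were the 15 with the highest mean value and the 5 largest differences in each direction at a mean of at least 2, with their hosts, and Gas5, Rn45s, and Snhg rows at that level. Lists of genes were described by counts and medians. Other named members were chosen after their values were seen. Hosts, GC content and sequences came from GENCODE M21 (GRCm38), with RefSeq for Snhg7 and older symbols. Snhg4 and Rn45s were not placed, and 125 members were. Naïve samples were not analysed here, and a few items under the rule for named snoRNAs are not reported here. The software was matplotlib 3.10.9, scipy 1.17.1, pandas 2.3.3 and numpy 2.4.6 under Python 3.11.15, and the scripts were tested on simulated data.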

Additional observations from a re-analysis of the deposited data

How the results depend on the processing

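Over the alternatives run, 20 values moved (a count by over 1.5 times, a single difference out of its counting interval, a median out of its binomial order-statistic interval over rows), 2 turned sign and 57 did neither. With a mean value of at least 4, 5 snoRNA rows were 2-fold higher and 0 lower, and 0 Snhg or Gas5 rows were lower. With no pseudocount, or with a mean value of at least 1, 1 Snhg row was lower. With library totals without Rn45s, 3 snoRNA rows were lower, 2 Snhg rows were higher, the snoRNA median was 0.295 and Rn45s differed by -1.528. The GC correction left 0 Snhg rows higher because Snhg4 had no GC value, and gave 0.219 for Gas5. At 1.5-fold, 18 snoRNA rows were higher and 11 lower, and 3 Snhg or Gas5 rows were higher. At 3-fold, 4 snoRNA rows were higher and 0 lower, and 1 Snhg row was lower. Rn45s differed by -1.663 with median-ratio scaling and by -1.304 with quantile normalization. The median snoRNA less host difference was -0.061 with quantile normalization and -0.018 with the GC correction, and 0.325 in Snhg and Gas5 hosts alone. The causes were not tested. A minimum of 10 reads kept 83 snoRNA rows in each library. Rn45s, Snhg4 and Snhg7 had no GC value, so the GC correction was not run on them. No paired analysis was possible because there is 1 library for each genotype, and no library could be left out.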
